A study of Mus musculus with 2 samples.

Results

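The MHC class II presentation genes described here are H2-Aa, H2-Ab1, H2-Eb1, H2-DMa, H2-DMb1, Cd74 and Ciita, taken by symbol from the list of 19465 genes measured in pancreatic tumors by spatial transcriptomics. All 7 were found, each as 1 feature, and all 7 were counted in both libraries. The study compared tumors of KPC cells, a mouse pancreatic cancer line, grown in the pancreas of mice. One library, labelled KPC-shZEB1, came from tumors of cells carrying a short hairpin RNA against Zeb1, and the other, labelled KPC-shV, from tumors of cells carrying the control vector. The methods give 2 tumors per group for this assay, while 1 library per label was analysed here, and which tumor a library covers is not stated in the sources used here. The paper's results describe the same tissues, in their single-cell part, as coming from mice given gemcitabine, while neither the labels nor the methods of the spatial assay name the drug. The methods give an age of a few weeks for all mice of the study and list several strains without tying one to these sections. Every tumor was an allograft of 1 cell line, so host cells and grafted cells lie side by side in a section and cannot be told apart by genotype in these counts.

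MHC class II molecules hold peptides from the endosome at the cell surface, where they are read by CD4+ T cells. H2-Aa and H2-Ab1 encode the alpha and beta chains of the I-A molecule and H2-Eb1 the beta chain of I-E. Cd74, the invariant chain, fills and protects the groove of a newly made molecule, and the H2-DM pair (H2-DMa and H2-DMb1) helps to exchange its remnant for a peptide. Ciita is the coactivator that switches this gene set on, through the RFX, CREB and NF-Y factors held at an array of X and Y boxes upstream of each gene. Dendritic cells, B cells and macrophages express class II as part of their normal function, and interferon gamma can induce Ciita and with it class II in epithelial and tumor cells.

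The H2 genes lie together. On GRCm38, the 5 H2 members and the related genes H2-DMb2, H2-Oa, H2-Ob and H2-Eb2 span 249 kb of chromosome 17, from 34092340 to 34341412, and Ciita lies on chromosome 16 from 10480059 to 10528418. RefSeq windows upstream of the start were at hand for 4 of the 7 genes (H2-Aa, H2-Eb1, H2-DMa and H2-DMb1; build GRCm38.p6). They were searched over 250 bases on both strands for the letters AGNNACNGA, the core of the X box, and GATTGG, the core of the Y box. Of 32851 windows of this length in the mouse genome, 14.7% held the first, 14.6% the second and 2.05% both. The stretches around the Y box core are shown for 3 genes because these boxes are where the factors that Ciita acts through are held. Of these 3 genes, H2-Eb1 and H2-DMb1 held both cores in their windows, and H2-Aa held the Y core only. Each stretch runs 5′ to 3′ on the strand of the gene, with letters of either core in capitals.
H2-Aa, chr17:34287837-34287932, minus strand: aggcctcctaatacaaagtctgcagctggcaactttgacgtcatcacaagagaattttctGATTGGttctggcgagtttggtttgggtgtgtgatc
H2-Eb1, chr17:34305747-34305842, plus strand: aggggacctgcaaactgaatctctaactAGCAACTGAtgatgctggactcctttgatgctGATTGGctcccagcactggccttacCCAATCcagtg
H2-DMb1, chr17:34153069-34153164, plus strand: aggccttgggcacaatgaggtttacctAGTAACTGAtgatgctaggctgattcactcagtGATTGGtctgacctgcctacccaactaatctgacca

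The Y box core began 49 bases before the start of H2-Aa, 60 before that of H2-Eb1 and 62 before that of H2-DMb1. The X box core began 92 bases before the start of H2-Eb1 and 95 before that of H2-DMb1, and H2-DMb1 held another on the other strand from 163 to 155 bases before the start, outside the stretch shown. H2-Eb1 held a second Y core on the other strand (capitals near the right end). The letters of the X core were not in the window of H2-Aa. A search for fixed letters misses a box spelled otherwise, so this does not show that H2-Aa lacks an X box. H2-DMa has 2 annotated starts, and 1 of its windows held a Y core, 199 bases before the start, without the X core.

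A level is given below as UMIs (unique molecular identifiers, each a captured probe molecule) per 1000000 UMIs of the spots named, CPM. Libraries or spot groups are compared by the log2 ratio of levels. With 1 library per label there was no replicate and no test. The 95% intervals (exact Poisson for levels, exact conditional binomial for ratios, exact binomial for shares) cover counting error only. A spot reads a small region with several cells, so more cells of a type and more RNA per cell cannot be told apart. Capture differs between genes, and the levels of different genes are not ranked against each other. A gene is counted as past 2-fold where its log2 ratio is over 1 or under -1 with at least 100 UMIs.

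The KPC-shZEB1-labelled library held 2220 spots with a median of 59957.5 UMIs, and the KPC-shV-labelled library held 3552 spots with a median of 52544.5. Normal pancreas was in both sections. Acinar-rich spots, with over 20% of their UMIs from digestive enzyme genes, made up 34.2% of the first library's spots and 7.07% of the second's. They were kept apart, which left 1460 and 3301 spots. Zeb1 itself stood at 15.6 CPM in the KPC-shZEB1-labelled library and 12.7 CPM in the other outside acinar-rich spots (log2 ratio 0.30, interval 0.20 to 0.40), and at 10.8 and 12.4 CPM over all spots. The level of the targeted gene therefore went against the label outside acinar-rich spots, and host cells express it too, so the libraries are named below by label only. The libraries share 1718 barcodes, which name slide positions and not cells.

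Summed over the 7 genes, class II reached 11133 CPM in the KPC-shZEB1-labelled library and 4990.4 CPM in the KPC-shV-labelled library outside acinar-rich spots (log2 ratio 1.16, interval 1.15 to 1.16). All 7 genes were higher in the KPC-shZEB1-labelled library and 6 of 7 were past 2-fold, with a median log2 ratio of 1.15. Over all 14381 genes compared, 4.81% were past 2-fold in this direction and 2.02% in the other, and the median was -0.02. With acinar-rich spots included the log2 ratio of the sum was 0.54, all 7 genes were still higher, and 0 of 7 were past 2-fold, against 2.4% of all genes and a median of -0.48. With those spots kept but the acinar genes taken out of the total, the log2 ratio of the sum was 0.91 and 1 of 7 was past 2-fold. The share of all genes past 2-fold was not computed for that total, so this count has nothing to be set against.

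Among the peptide-binding chains, H2-Aa stood at 1524 CPM in the KPC-shZEB1-labelled library and 503 CPM in the KPC-shV-labelled library (log2 ratio 1.60, interval 1.59 to 1.61), the highest ratio of the 7. H2-Ab1, its partner chain, stood at 1183 and 505 CPM (1.23, interval 1.22 to 1.24). H2-Eb1 stood at 703 and 331 CPM (1.08, interval 1.07 to 1.10). The chains of I-A thus did not differ by the same amount. Per UMI of H2-Ab1 there were 1.29 UMIs of H2-Aa (interval 1.28 to 1.30) in the KPC-shZEB1-labelled library and 0.997 (0.987 to 1.01) in the other.

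That gap between the I-A chains was present in each group of spots examined. In acinar-rich spots the UMIs of H2-Aa per UMI of H2-Ab1 were 1.20 (KPC-shZEB1-labelled library) and 0.744 (KPC-shV-labelled library), in macrophage-rich spots 1.21 and 0.912, and in epithelial-rich spots 1.43 and 0.901 (these groups are defined below). It was 1.18 and 0.84 in B cell-rich spots and 1.32 and 0.867 in interferon-high spots, so the KPC-shZEB1-labelled library was the higher in each. H2-Aa accordingly took 13.7% of class II UMIs in the KPC-shZEB1-labelled library and 10.1% in the other.

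Cd74, the invariant chain (chromosome 18, 60803848 to 60812652), supplied most of the summed UMIs, 65.2% and 68.2%. Its level was 7254 CPM in the KPC-shZEB1-labelled library and 3402 CPM in the KPC-shV-labelled library (1.09, interval 1.09 to 1.10). Sums over the 7 genes therefore follow Cd74 closely, and the genes are given one by one where they part from it.

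The peptide editors, like the I-A chains, did not differ by the same amount. H2-DMa stood at 115 CPM and 51.5 CPM (1.15, interval 1.11 to 1.20). H2-DMb1 stood at 271 and 162 CPM (0.75, interval 0.72 to 0.77) and was the 1 member not past 2-fold. Ciita, the coactivator, stood at 83.4 and 35.5 CPM (1.23, interval 1.18 to 1.28). Its UMIs per UMI of the class II sum were 0.00749 and 0.0071. Ciita and the sum, which is mostly Cd74, thus differed between the libraries by about the same factor. The single genes did not all share it, with log2 ratios from 0.75 for H2-DMb1 to 1.60 for H2-Aa.

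**Figure D1:**
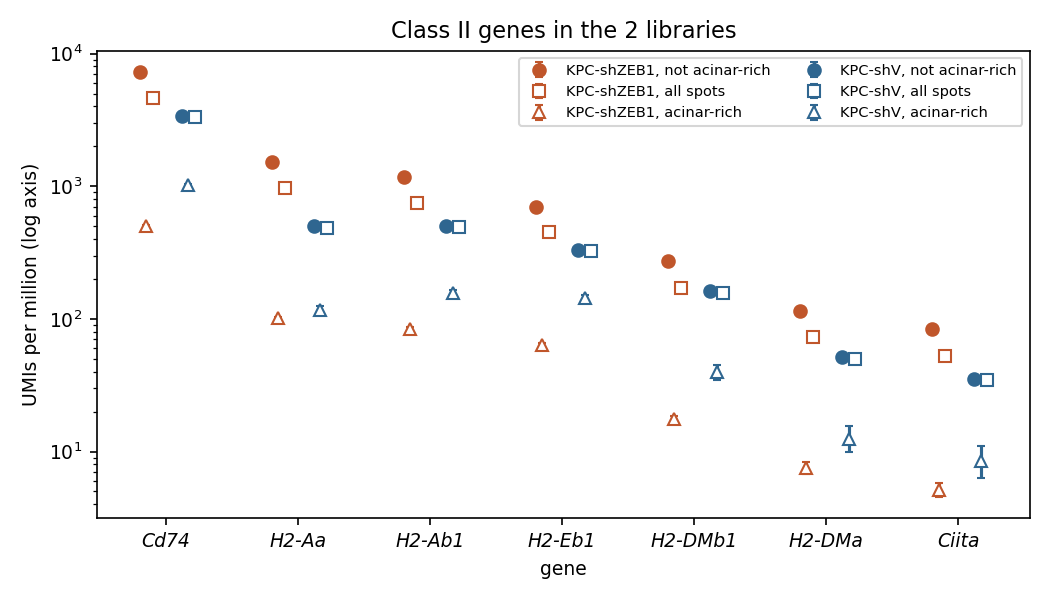
Level of each class II gene in CPM (UMIs per 1000000) on a log axis, for both libraries and for spots that are not acinar-rich (filled circles), all spots (squares) and acinar-rich spots (triangles). Bars are exact 95% Poisson intervals, and most are smaller than the symbols. Each filled orange circle lies above the blue one, while in acinar-rich spots each orange triangle lies below the blue one.

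In acinar-rich spots the order was the other way round. The class II sum was 782 CPM in the KPC-shZEB1-labelled library and 1498 CPM in the KPC-shV-labelled library (-0.94, interval -0.97 to -0.91). Each of the 7 genes was lower in the KPC-shZEB1-labelled library, from H2-Aa at 101 and 116 CPM (-0.19) to H2-DMb1 at 17.5 and 39.5 CPM (-1.18). Neither the share nor the median of all genes was computed for this comparison, so it does not set class II apart from other genes. Of all UMIs in these spots, 59.9% and 39.8% were of acinar genes, and CPM levels are shares of that total. The acinar-rich spots were not alike in the 2 sections. Acinar genes took a median of 62.3% of UMIs per spot in the first and 38.8% in the second, and the macrophage list stood at 415 and 1525 CPM. The part of these differences in the result was not tested. Acinar-rich spots were far below the other spots in both libraries, by -3.83 and -1.74 on the log2 scale. All 7 genes were past 2-fold lower in both, where 89.8% and 49.2% of all genes were, so the count says little about class II.

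A further 4 groups of spots were set by marker lists that hold no class II gene. Among spots that are not acinar-rich in either library, a group took those above the 90th percentile of the share of UMIs from 10 macrophage genes (macrophage-rich), 8 B cell genes (B cell-rich), 12 genes induced by interferon gamma, among them Cxcl9, Cxcl10 and guanylate-binding protein genes (interferon-high), or 7 epithelial genes (epithelial-rich). The groups may overlap. Of 247 B cell-rich spots in the KPC-shZEB1-labelled library, 88 were also macrophage-rich, and of 229 in the KPC-shV-labelled library, 98 were. No epithelial-rich spot was macrophage-rich in either.

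Macrophage-rich spots had the highest class II level of the 5 groups in both libraries. The sum reached 23149.6 CPM in 137 spots of the KPC-shZEB1-labelled library, against 10172 CPM in its other spots (log2 ratio 1.19). In the KPC-shV-labelled library it reached 16516 CPM in 339 spots against 4351 CPM (1.92). In the first 5 of 7 genes were past 2-fold, where 12.4% of all genes were, and in the second 7 of 7, where 17.1% were. H2-Eb1 had the highest ratio in both, 1.75 and 2.34, and the lowest were Ciita (0.69) and H2-DMb1 (1.46), respectively. Ctss, the cathepsin that trims the invariant chain, was likewise higher in these spots, with ratios of 1.52 and 2.19. Of the macrophage-rich spots, 88 of 137 and 98 of 339 were also B cell-rich. In the T cell-rich class described at the end were 89 of 137 and 56 of 339. The class was thus not the same mixture in the 2 libraries, and the part of this was not tested.

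B cell-rich spots stood at 17998 CPM in the KPC-shZEB1-labelled library against 10226 CPM in its other spots (0.82), and at 10645 CPM against 4837 CPM in the KPC-shV-labelled library (1.14). In the first 1 of 7 genes, H2-Eb1, was past 2-fold, where 13.6% of all genes were, and in the second 4 of 7, where 26.6% were. The count in the first library was near the share of all genes and says little about class II. The ratio of H2-Eb1 was 1.47 in the first and 1.46 in the second. The macrophage list was also higher in B cell-rich spots, at 5382 against 2357 CPM and at 5647 against 1668 CPM. Leaving out spots that were macrophage-rich as well, the class II sum was 14655 and 7099 CPM, but the macrophage list in the spots left was still at 4159 and 3350 CPM. Its part in the B cell-rich values was not tested. A spot entered the B cell-rich class above 84.6 CPM of the B cell list, so very few B cell UMIs suffice in a shallow spot. Median depths in the class were 37105 and 15066 UMIs, against 58340 and 54861 UMIs over all spots that are not acinar-rich. The part of depth in the B cell-rich values was not tested either.

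The inhibitor of H2-DM was set apart more sharply in B cell-rich spots than any member was. H2-Ob, the beta chain of H2-O, an inhibitor of H2-DM used by B cells, stood at 68.7 CPM in B cell-rich spots of the KPC-shZEB1-labelled library against 6.47 CPM in its other spots (3.41, interval 3.24 to 3.58). In the KPC-shV-labelled library it stood at 33.8 against 3.08 CPM (3.46, interval 3.18 to 3.72). H2-Oa, its partner, had ratios of 1.88 and 1.64, and of 2.20 and 1.54 in macrophage-rich spots. H2-O UMIs per H2-DM UMI were 0.128 and 0.0914 in B cell-rich spots, but 0.0175 and 0.0208 in interferon-high spots. High shares were also seen in other classes, which share spots with the B cell-rich class. Among the further classes described at the end, they were 0.121 and 0.0294 in endothelial-rich and 0.112 and 0.0551 in plasma cell-rich spots. In neutrophil-rich spots they were 0.086 and 0.103. Of endothelial-rich spots, 77 of 109 and 67 of 367 were also B cell-rich. Of plasma cell-rich spots 208 of 297 and 51 of 179 were, and of neutrophil-rich spots 8 of 12 and 56 of 464. The part of these shared spots in the values of the other classes was not tested. The second H2-DM beta gene, H2-DMb2, was likewise higher in share in B cell-rich spots, with 0.311 and 0.243 UMIs per UMI of H2-DMb1. Over all spots that are not acinar-rich the values were 0.19 and 0.108, and in endothelial-rich spots 0.306 and 0.135.

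Of these 5 groups, interferon-high spots were the one in which the libraries were closest. The class II sum was 13922 CPM in 326 spots of the KPC-shZEB1-labelled library and 14319 CPM in 150 spots of the KPC-shV-labelled library (-0.04, interval -0.05 to -0.03). The other spots of each library stood at 10186 and 4549 CPM, so that the ratio of interferon-high to other spots was 0.45 in the first and 1.65 in the second. Of the 7 genes, 0 were past 2-fold in the first, where 0.535% of all genes were, and all 7 were in the second, where 4.23% were. Ifng, the gene of interferon gamma, stood at 12.1 and 12.0 CPM in these spots. The class was not the same mixture in the 2 libraries. Of its spots, 68 of 326 and 1 of 150 were also epithelial-rich, and 21 of 326 and 29 of 150 macrophage-rich. In the T cell-rich class described at the end were 122 of 326 and 20 of 150. The part of this mixture in the class II values was not tested.

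Ciita behaved differently from H2-Eb1 in interferon-high spots of the KPC-shZEB1-labelled library, while in those of the KPC-shV-labelled library both were among the highest. In the KPC-shZEB1-labelled library, Ciita had the highest ratio of the 7 genes in those spots (0.94, interval 0.87 to 1.01; 130 against 67.7 CPM) and H2-Eb1 the lowest (0.19, interval 0.16 to 0.21; 773 against 679 CPM). In the KPC-shV-labelled library, H2-Eb1 had the highest (2.06; 1208 against 290 CPM) and Ciita the next (1.84; 114 against 31.7 CPM). The macrophage list stood at 2713 CPM in interferon-high spots and 2709 CPM in the others in the first library, and at 3429 against 1695 CPM in the second. The spots were thus equally rich in macrophage genes only in the first. The part of this in the H2-Eb1 values was not tested.

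Epithelial-rich spots held less class II than the other spots, and of the 5 groups they were where the libraries were farthest apart. The sum was 8363 CPM in 214 spots of the KPC-shZEB1-labelled library, against 11737 CPM in its other spots (-0.49). In 262 spots of the KPC-shV-labelled library it was 1798 CPM against 5241 CPM (-1.54). In the first 1 of 7 genes, H2-Eb1, was past 2-fold lower, where 13.3% of all genes were, and in the second 6 of 7, where 8.26% were. Here too the count in the first library was near the share of all genes. Ciita in the KPC-shZEB1-labelled library was at 81.6 CPM in epithelial-rich and 83.8 CPM in other spots (-0.04, interval -0.13 to 0.05), a difference within counting error. In the KPC-shV-labelled library it was at 16.9 against 36.9 CPM (-1.13).

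**Figure D2:**
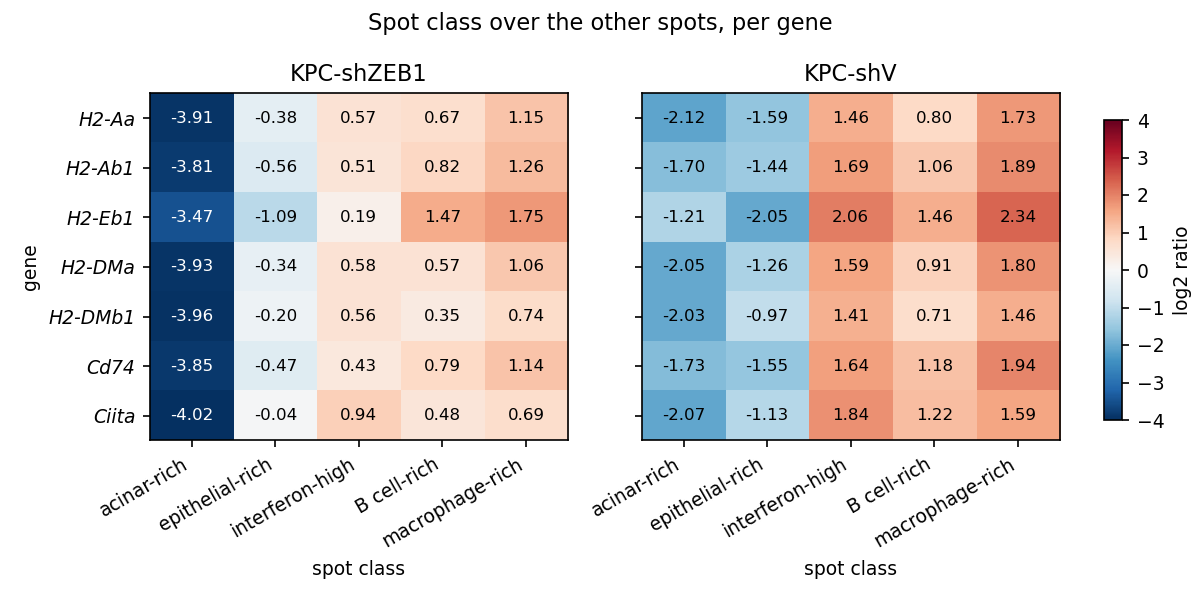
Log2 ratio of each class II gene in a spot class over the other spots that are not acinar-rich, for each library, with the value in each cell. The acinar-rich column differs most between the libraries. The interferon-high and epithelial-rich columns differ more than the macrophage-rich and B cell-rich columns. H2-Eb1 has the highest ratio of the 7 genes in the macrophage-rich and B cell-rich columns of both.

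Between the libraries, epithelial-rich spots differed by a log2 ratio of 2.22 in the class II sum (interval 2.20 to 2.24). All 7 genes were past 2-fold, where 2.86% of all genes were. H2-Aa was at 1222 CPM in the KPC-shZEB1-labelled library and 176 CPM in the KPC-shV-labelled library (2.80), and H2-DMb1, the lowest of the 7, at 242 and 85.7 CPM. The epithelial list itself was at 12504 and 11956 CPM in these spots, so they were about equally rich in epithelial genes. Other lists were not equal there. The interferon list was at 4942 and 956 CPM, the macrophage list at 1435 and 628 CPM, and the T cell list at 89.2 and 9.12 CPM, while the B cell list was at 10.1 and 10.9 CPM and the dendritic cell list at 121 and 217 CPM. Of the epithelial-rich spots, 3 of 214 and 85 of 262 were also neutrophil-rich, a class described at the end. The part of these differences in the class II ratio was not tested.

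The difference in epithelial-rich spots was also present in narrower sets of them, in which the lists were still unequal. In epithelial-rich spots of the lowest quartile of the macrophage list, the class II sum was 5301 CPM in 31 spots of the KPC-shZEB1-labelled library and 1400.1 CPM in 204 spots of the KPC-shV-labelled library. The macrophage list in them was at 605 and 449 CPM and the interferon list at 3257 and 790 CPM. In epithelial-rich spots that were not interferon-high, the sum was 7265 CPM (146 spots) and 1777 CPM (261 spots), with the interferon list at 3494 and 927 CPM and the macrophage list at 1322 and 623 CPM. In those of the lower 2 quartiles of the interferon list it was 2995 CPM and 1394 CPM, with the interferon list at 437 and 521 CPM and the macrophage list at 1185 and 576 CPM, but only 11 spots of the first library were of this kind.

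The macrophage-rich, B cell-rich and interferon-high groups differed less between the libraries. In macrophage-rich spots the log2 ratio of the sum was 0.49, and 1 of 7 genes, H2-Aa, was past 2-fold, where 1.34% of all genes were. In B cell-rich spots it was 0.76, again with H2-Aa alone past 2-fold, where 0.788% were. In interferon-high spots 0 of 7 were, where 1.2% were, and the genes ran from -0.64 for H2-Eb1 (773 and 1208 CPM) to 0.65 for H2-Aa (2012 and 1279.7 CPM).

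**Figure D3:**
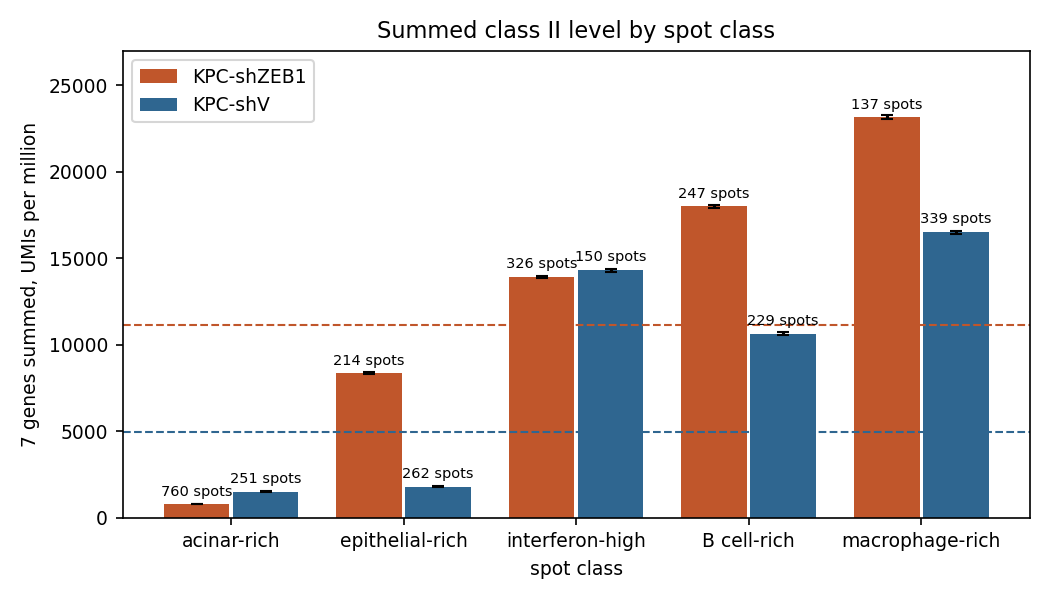
Summed level of the 7 class II genes in CPM by spot class and library, with the number of spots over each bar and exact 95% Poisson intervals. Dashed lines mark each library's level over all spots that are not acinar-rich (11133 and 4990.4). The bars of the interferon-high class are nearly equal, those of the epithelial-rich class are the most unequal, and the macrophage-rich bars are the tallest of each library.

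Because the libraries differ in their lists, the sum was also compared between spots in the same quartile of a list. In the 4 quartiles of the macrophage list, from lowest to highest, the log2 ratio of the sum was 1.67, 1.11, 0.51 and 0.35, with a mean of 0.91. The levels of the lowest quartile were 4053 CPM (86 spots) in the KPC-shZEB1-labelled library and 1273 CPM (1105 spots) in the KPC-shV-labelled library, and those of the highest 17903 CPM (457 spots) and 14009 CPM (733 spots). In the quartiles of the interferon list the ratio was 0.40, 1.13, 0.88 and 0.31, with a mean of 0.68. All 8 ratios were above 0 and 3 were over 1. The lists were not equal within every quartile. The macrophage list stood at 583 and 441 CPM in its lowest quartile and at 5196 and 5559 CPM in its highest, and the interferon list at 2259 and 2005 CPM in the quartile below its highest and at 5983 and 5121 CPM in its highest.

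Grouping by both lists at once, an alternative added after the data were seen, gave 16 combinations of quartiles with a mean of 0.50. In the lowest macrophage quartile the 4 ratios ran from 0.76 to 1.46. In the highest they ran from -0.23 to 0.22, and the lowest of these rests on 8 spots of the KPC-shZEB1-labelled library. In spots both macrophage-rich and interferon-high, class II reached 29198 CPM (21 spots) and 26757 CPM (29 spots), the highest level of the spot groups given here.

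**Figure D4:**
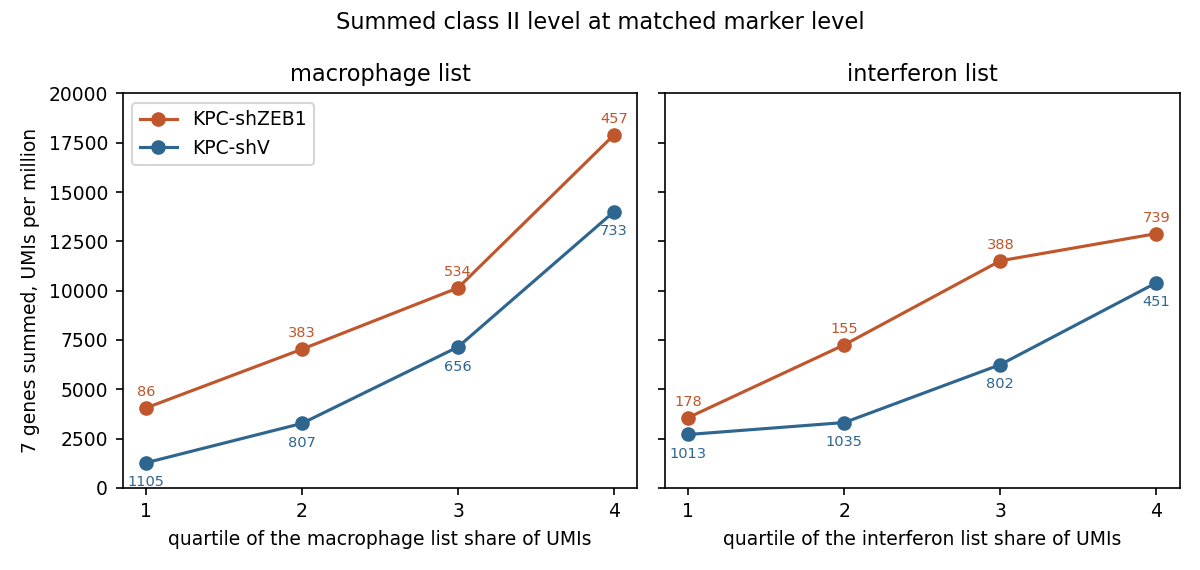
Summed class II level in CPM in spots grouped by quartile of the macrophage list (left) or the interferon list (right), with the number of spots beside each point. The lines of the 2 libraries are nearest, as a ratio, in the highest quartile of both lists and farthest in the lowest macrophage quartile.

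Spot by spot, and outside acinar-rich spots, class II was spread more evenly in the KPC-shZEB1-labelled library. The median spot that is not acinar-rich held 10284 CPM there (5th to 95th percentile 2113 to 24426) and 3118 CPM in the KPC-shV-labelled library (473 to 17997). The highest spots were alike, at 40003 and 42247 CPM. The top 27.0% of spots held 50% of class II UMIs in the first library, and the top 16.2% did in the second. Spots with 0 class II UMIs numbered 1 and 3. All these values leave out acinar-rich spots, in which the spread went the other way. There the top 8.82% of spots held 50% of class II UMIs in the first library and the top 28.7% did in the second.

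Ciita had few UMIs per spot, so its presence was compared after each spot was thinned to 5000 UMIs. A UMI of Ciita was then found in 29.9% of 1456 spots that are not acinar-rich in the KPC-shZEB1-labelled library (interval 27.5% to 32.3%) and in 16.3% of 3127 spots in the KPC-shV-labelled library (15.0% to 17.6%). Before thinning the shares were 89.4% and 61.5%, at median depths of 58340 and 54861 UMIs. The thinned share in acinar-rich spots, whose main cells should lack the gene, was 3.03% (median depth 66371) and 5.83% (24803.5). In epithelial-rich spots it was 32.7% of 214 (26.5% to 39.4%) and 7.36% of 258 (4.49% to 11.3%). The second of these overlaps the acinar-rich share of its library, so thinned shares do not separate these spot groups at this depth. The acinar-rich spots of that library are not a clean background. Their macrophage list stood at 1525 CPM, against 628 CPM in its epithelial-rich spots. On full counts, Ciita there stood at 16.9 CPM in epithelial-rich spots (204 UMIs) and 8.46 CPM in acinar-rich spots (55 UMIs). The intervals of these levels did not overlap. In interferon-high spots the thinned shares were 39.9% and 38.9%, and in macrophage-rich spots 37.8% and 39.0%, close together in both.

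The 7 genes went together over spots. Spearman's rho of spot CPM, over 1460 and 3301 spots that are not acinar-rich, was highest for H2-Ab1 with Cd74, at 0.95 in the KPC-shZEB1-labelled library and 0.91 in the KPC-shV-labelled library. Pairs with Ciita were lower, from 0.53 to 0.63 in the first and from 0.48 to 0.61 in the second, and Ciita has few UMIs per spot. H2-Aa with H2-Eb1 was at 0.72 and 0.78. Spots share a section and differ in depth, so these values are descriptions.

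Of the marker lists, the macrophage list was the most like the class II sum in both libraries, with rho of 0.73 and 0.87. The T cell list followed in the KPC-shZEB1-labelled library (0.70) and the fibroblast list in the KPC-shV-labelled library (0.75), where the other library stood at 0.53 and 0.33, respectively. After thinning to 5000 UMIs the T cell list was at 0.42 and 0.30, below the interferon list at 0.46 and 0.48. Without thinning the interferon list was at 0.49 and 0.50, the dendritic cell list at 0.48 and 0.33, the endothelial list at 0.42 and 0.53, the B cell list at 0.38 and 0.25 and the plasma cell list at 0.31 and 0.20. Most UMIs of the dendritic cell list were of the single gene Fscn1, as given below. The epithelial list was negative in both, at -0.37 and -0.57. The acinar list was at 0.01 and 0.03 and total UMIs at -0.06 and -0.04.

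**Figure D5:**
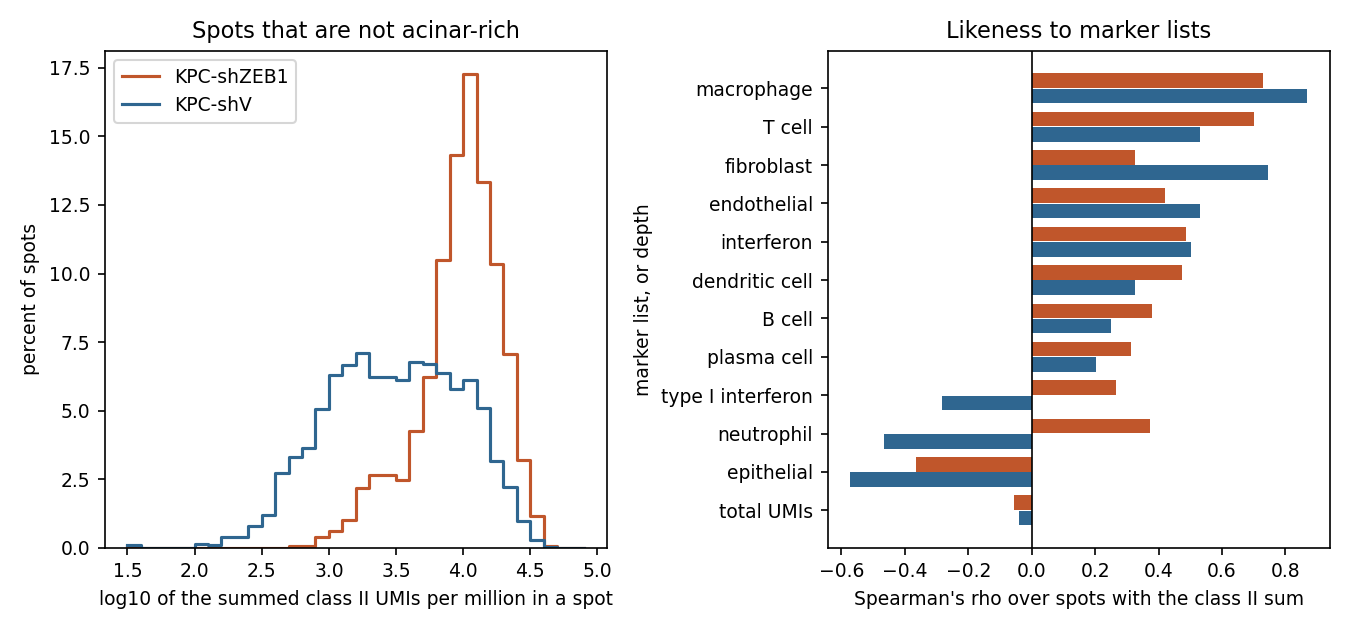
Left, percent of spots that are not acinar-rich against the log10 of their summed class II CPM, in steps of equal width. Right, Spearman's rho over those spots between the class II sum and each marker list or the total UMIs. The left curve of KPC-shZEB1 is a narrow peak near its median of 10284 while that of KPC-shV is broad, and the bars on the right are longest for the macrophage list.

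The single genes most like the class II sum were named by the lower of their rho values in the 2 libraries, among 4199 genes with at least 50 CPM in both. They were Ctss (0.76 and 0.91), Aif1 (0.76 and 0.79), Psap (0.75 and 0.76), Mpeg1 (0.75 and 0.78), Cybb (0.74 and 0.77), C1qc (0.73 and 0.83), Cd52 (0.82 and 0.72), C1qb (0.72 and 0.83), C1qa (0.72 and 0.87) and Serpina3g (0.77 and 0.71). Aif1, Mpeg1, Cybb and the C1q genes are expressed by macrophages, and the 3 C1q genes are on the macrophage list used.

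Beyond the members, 32 further genes of the pathway were listed and 29 of them were measured. Outside acinar-rich spots 9 of the 29 were past 2-fold higher in the KPC-shZEB1-labelled library, where 4.81% of all genes were, and 0 lower, where 2.02% were, with a median log2 ratio of 0.40. Over all spots 3 were higher, where 2.4% of all genes were, and 0 lower, where 1415 of 15358 genes were. The median there was -0.11, against -0.48 over all genes. The other chains and editors were all past 2-fold, H2-Eb2 at 2.31, H2-Ob at 1.82, H2-DMb2 at 1.55 and H2-Oa at 1.03. These are low in counts, with H2-Eb2 at 4.03 and 0.809 CPM. The B cell list moved the same way, at 53.3 and 18.2 CPM, and its part in these ratios was not tested.

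The proteases that process the invariant chain and antigen did not move as a group. Ctss was at 1581 CPM in the KPC-shZEB1-labelled library and 856 CPM in the KPC-shV-labelled library (0.89). Lgmn, the asparaginyl endopeptidase, was at 534 and 425 CPM (0.33). Ctsl, the cathepsin that trims the invariant chain in thymic epithelium, was lower, at 645 and 1029 CPM (-0.67). Its log2 ratio was also below 0 within each of the 5 spot groups, from -1.69 in acinar-rich to -0.73 in macrophage-rich spots.

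The DNA-binding partners of Ciita differed less between the libraries than Ciita did. Of 6 such genes, 0 were past 2-fold, where 4.81% of all genes were higher and 2.02% lower. With so few genes the count says little about them. Rfx5 was at 13.5 and 9.74 CPM (0.47), Rfxap at 0.39, Nfya at 0.08, Nfyb at -0.17, Rfxank at -0.21 and Creb1 at -0.27 on the log2 scale. Ciita at 1.23 thus stood apart in size from the factors it acts through.

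Along the interferon gamma signal, Ifng was at 5.40 and 2.02 CPM (1.42, interval 1.21 to 1.63). Irf1, which acts on the inducible promoter of Ciita, was at 327 and 172 CPM (0.93) and the feedback inhibitor Socs1 at 76.1 and 41.6 CPM (0.87). The receptor and kinase genes Ifngr1 (0.27), Ifngr2 (0.39), Jak1 (-0.06) and Jak2 (0.16) were nearer to 0. In epithelial-rich spots Irf1 was at 392 and 146 CPM (1.42). The ubiquitin ligase genes Marchf1 and Marchf8, of which Marchf1 removes class II from the surface, were at 0.40 and -0.00.

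On the T cell side, Cd4, the coreceptor for class II, was at 10.3 and 4.54 CPM (1.18). Cd40lg, the signal from T helper cells, was at 2.80 and 0.858 CPM (1.71), and Cd86, a costimulator on presenting cells, at 31.8 and 14.4 CPM (1.15). These 3 of the 6 genes were past 2-fold, where 4.81% of all genes were. Cd40 (0.75), Cd80 (0.31) and Lag3, an inhibitory receptor that binds class II (0.23), were not. Over all spots 1 of the 6 was past 2-fold, where 2.4% of all genes were. The marker lists differed between the libraries as well. Outside acinar-rich spots the macrophage list was at 2710 and 1774 CPM, the T cell list at 138 and 29.1 CPM, the plasma cell list at 176 and 13.5 CPM and the interferon list at 4037 and 1630 CPM, with all 10 macrophage and all 12 interferon genes higher in the KPC-shZEB1-labelled library. The dendritic cell list was lower there, at 224 against 300 CPM, although 8 of its 10 genes were higher, and Fscn1, at 132 and 236 CPM, made up most of the sum. The epithelial list was at 6199.9 and 7176 CPM, the fibroblast list at 4672 and 4225 CPM, the endothelial list at 98.1 and 121 CPM, the neutrophil list at 137 and 323 CPM and the list of genes induced by type I interferon at 510.0 and 528 CPM.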

How the data were processed

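Spatial transcriptomics of orthotopic KPC tumors was measured in 2 libraries, 1 with the label KPC-shZEB1 and 1 with the label KPC-shV. The authors made Visium CytAssist libraries, which count probes bound to each gene, from OCT-embedded, methanol-fixed tissue, ran Space Ranger 2.0.1 against mm10, kept the spots over tissue and deposited unnormalized UMI counts for each gene in each spot. In total 140493626 and 172059528 UMIs were counted. Each probe reads only its target stretch, and fixation and permeation of the section can change how many UMIs a spot yields, so levels were scaled to total UMIs. Neither images nor spot positions entered the work described here.

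From the deposited counts, CPM levels, log2 ratios and shares were computed with Python 3.11.15, numpy 2.4.6, scipy 1.17.1 and pandas 2.3.3, and plotted with matplotlib 3.10.9. The computation was checked on simulated data. The members, the lists and the spot classes were chosen with earlier results of these data known. Spots are not replicates, so no test was run. The genes named are the members, 32 listed genes of the pathway, the marker genes and the 10 genes most like the class II sum. Marchf1 and Marchf8 appear in the files under older symbols. H2-Ea, Ifi30, Nfyc, Krt18, Cpb1, Prss1, Try5, Pnliprp1, Amy2b, Isg15 and Mx1 were listed but are not in the feature list used. Doublets were not called, since spots are regions and not cells. Gene positions came from GENCODE M21 and upstream sequences from RefSeq, both on GRCm38, which is mm10. The alternatives were other acinar thresholds (5% and 40%), all spots, other totals and scalings, spot filters, other class percentiles, finer bins and other thinning depths. A gene of the pathway list is not reported here by name.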

Additional observations from a re-analysis of the deposited data

Results flagged for a closer look

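Class II went opposite ways in neutrophil-rich spots of the 2 libraries. This class, chosen after the data were seen, took spots above the 90th percentile of a list of 6 neutrophil genes. Its log2 ratio over other spots for the class II sum was 0.74 in the KPC-shZEB1-labelled library (18589 CPM). In the KPC-shV-labelled library it was -2.04 (1253 CPM). The 7 genes ran from 0.11 (Ciita, interval -0.47 to 0.63) to 1.24 (H2-Eb1) in the first library. In the second they ran from -2.42 (H2-Eb1) to -1.39 (Ciita). The share of all genes past 2-fold was not computed for this class. The difference between the libraries was not tested, and only 12 spots of the first library were of this class, against 464 of the second. Macrophage-list levels in these spots were 6472 and 671 CPM, and median depths were 24263 and 11668 UMIs, and their part in the difference was not tested. Over all spots that are not acinar-rich, Spearman's rho of the class II sum with the neutrophil list was 0.37 and -0.47, and with 6 genes induced by type I interferon it was 0.26 and -0.28. The signs differ between the libraries in each case, and those differences were not tested either.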

How the results depend on the processing

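All 11 alternatives kept the log2 ratio of the class II sum between libraries above 0. Against 1.16, it was 0.54 with all spots, 0.91 with all spots and acinar genes out of the total, 1.15 and 1.14 with acinar thresholds of 5% and 40%, 1.17 by median of ratios, 1.07 as a mean of spot CPM, 1.26 without the highest 5% of spots, 1.08 without B cell-rich spots, 1.16 as the mean over the 7 genes and 1.17 without spots under 20000 UMIs, the last chosen after seeing the data. Of 7 members, 0 were past 2-fold with all spots and 1 with acinar genes out of the total, against 6. Of all genes, 2.4% were past 2-fold with all spots and 4.81% in the main setting. That share was not computed with acinar genes out of the total. The cause of the lower counts of members was not tested. All 63 alternative values of single genes stayed above 0. For the spot classes (values given for KPC-shZEB1, then KPC-shV), acinar thresholds of 5% and 40% gave -2.96 and -4.60, then -1.12 and -2.38. The 95th percentile gave 0.83 for B cell-rich (KPC-shZEB1 only), 1.23 and 1.85 for macrophage-rich, 0.44 and 1.81 for interferon-high and -0.48 and -1.57 for epithelial-rich spots. Spots of 1 class only gave 0.52 and 0.54 for B cell-rich, 0.96 and 1.86 for macrophage-rich, 0.44 and 1.45 for interferon-high and -0.69 for epithelial-rich spots (KPC-shZEB1 only). Spots with at least 5000 UMIs gave 1.93 for macrophage-rich spots of KPC-shV. All 30 kept their sign. The mean ratios within list quartiles (0.91 and 0.68) were 0.81 and 0.66 with 10 bins, 0.88 and 0.60 without B cell-rich spots (macrophage, then interferon list) and 0.50 with both lists crossed. Ciita was found in 89.4% and 61.5% of spots without thinning and in 16.0% and 7.28% at 2000 UMIs, so its share depends on depth while its order between libraries did not. Rank correlations kept their sign in all 26 cases after thinning, but 10 moved by over 0.1, toward 0, among them the T cell list, at 0.42 and 0.30. No paired analysis was possible because each group is 1 library. Genes with few UMIs, such as H2-Oa, are limited by counting error.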

Other observations

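Over the 6 further classes, chosen after the data were seen, class II was higher than in other spots of the same library in 5 classes in both. T cell-rich spots stood at 17373 CPM in the KPC-shZEB1-labelled library and 17157 CPM in the KPC-shV-labelled library, with log2 ratios over other spots of 0.91 and 1.84. Dendritic cell-rich spots stood at 20755 and 11049 CPM (0.95 and 1.30), plasma cell-rich spots at 17096 and 11700.0 CPM (0.76 and 1.30), fibroblast-rich spots at 17574 and 12517 CPM (0.70 and 1.46) and endothelial-rich spots at 15951 and 11145 CPM (0.55 and 1.33). The dendritic cell-rich class held 81 and 395 spots, although 8 of the 10 genes of its list were higher in the KPC-shZEB1-labelled library. Fscn1 made up most of that list in both libraries, so the name of the class rests largely on 1 gene. H2-Eb1 had the highest ratio of the 7 genes in each of these 5 classes in both libraries, up to 2.33 in T cell-rich spots of the KPC-shV-labelled library. The 10 genes least like the class II sum, by the higher of their rho values in the 2 libraries among the same 4199 genes, included the glycolysis genes Pkm (-0.57 and -0.74) and Pgk1 (-0.51 and -0.74), the oxygen sensor Egln3 (-0.55 and -0.75) and the ribosomal scaffold Rack1 (-0.60 and -0.59). They were named after their values were seen.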
